A study of Caenorhabditis elegans with 2 samples.

Results

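Epithelial cells of the nematode *Caenorhabditis elegans* are joined by apical junctions built from 2 protein modules. Binding of the homeodomain factor CEH-22 was examined at 7 genes of these modules, of junction placement (*let-413*) and of attachment structures (*vab-10*). Together they are called junction genes here. The genes, named by their symbols in the Ensembl annotation, were *ajm-1*, *dlg-1*, *let-413*, *hmr-1*, *hmp-1*, *hmp-2* and *vab-10*, out of 19985 protein-coding genes. They were selected on the strength of peaks in these same lists, in particular an intronic peak in *ajm-1*, so their values are a description and carry no test. A region counted for a gene when its summit lay between 5000 bp upstream of the gene's annotated 5′ end and its 3′ end, here called the window.

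CEH-22 is an NK-2 class homeodomain protein best known for activating muscle genes of the pharynx, the feeding organ. Pharyngeal muscle cells are themselves epithelial, with an apical surface and junctions. In such junctions the cadherin HMR-1 is tied to actin through the catenins HMP-2 and HMP-1, while DLG-1 and AJM-1 form a second, more basal belt whose placement needs LET-413. VAB-10, a spectraplakin, links attachment structures to the cytoskeleton.

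The study profiled CEH-22 in whole late embryos of both sexes by ChIP-seq, with 2 biological replicates in 1 group. All animals came from strain OP389, which carries the allele *unc-119(tm4063)* and the transgene wgIs389, a C-terminal GFP-FLAG fusion of CEH-22, so there is no group without it. The antibody is labelled only as ceh-22, and the sources used here do not name the cells in which the transgene is active. Chromatin of all cells was pooled, so strong binding in few cells and weak binding in many cannot be told apart.

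The deposited lists held 19644 pooled relaxed regions, 30000 relaxed regions in each replicate, and a thresholded list of peaks that passed IDR, a comparison of the ranked replicate lists, all on build ce11. The thresholded peaks were the top 1.45% of the pooled list by signal value. Read numbers are not part of these lists, so depth is unknown. The authors' signal value has no stated scale, and serves here to rank and describe regions inside a single list. Rank 1 is the strongest region. The relaxed lists are deposited as peaks together with background, with −log10 q values down to 0.0175 in the pooled list, so a weak region need not be a binding site. None of the lists measures expression of the genes.

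The strongest regions of the members on chromosomes X and V are shown as sequence, because they are where a reader would look for a CEH-22 site. Each window reaches 100 bp to each side of the summit, read 5′ to 3′ on the strand of the gene (RefSeq genome, WBcel235, the assembly of ce11). Capitals mark AAGTG, the end of the NK-2 site, on either strand (CACTT when it lies on the other strand), and in *dlg-1* the whole site, written as CACTTGA, the reverse complement of TCAAGTG. The *let-413* and *hmp-1* windows hold neither.
*dlg-1*, chrX:5475264-5475464, plus strand: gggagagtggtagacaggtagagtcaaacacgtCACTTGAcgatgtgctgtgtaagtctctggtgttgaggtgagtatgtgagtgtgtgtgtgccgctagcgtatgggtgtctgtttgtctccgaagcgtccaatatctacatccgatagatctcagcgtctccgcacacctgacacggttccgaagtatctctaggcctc
*ajm-1* strongest, chrX:9102222-9102422, plus strand: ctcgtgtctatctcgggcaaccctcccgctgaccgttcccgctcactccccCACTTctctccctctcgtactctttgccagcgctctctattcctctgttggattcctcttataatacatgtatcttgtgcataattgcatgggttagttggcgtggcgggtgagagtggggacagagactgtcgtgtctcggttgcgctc
*ajm-1* second, chrX:9100950-9101150, plus strand: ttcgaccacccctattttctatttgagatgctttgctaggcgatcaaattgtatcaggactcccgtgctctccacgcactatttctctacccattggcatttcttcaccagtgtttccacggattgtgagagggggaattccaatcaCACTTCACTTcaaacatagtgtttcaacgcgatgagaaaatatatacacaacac
*hmp-1*, chrV:11844798-11844998, plus strand: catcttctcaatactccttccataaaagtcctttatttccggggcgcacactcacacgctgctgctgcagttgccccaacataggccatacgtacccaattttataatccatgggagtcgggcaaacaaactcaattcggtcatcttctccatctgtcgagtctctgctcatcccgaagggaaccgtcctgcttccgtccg
*let-413*, chrV:7978126-7978326, minus strand: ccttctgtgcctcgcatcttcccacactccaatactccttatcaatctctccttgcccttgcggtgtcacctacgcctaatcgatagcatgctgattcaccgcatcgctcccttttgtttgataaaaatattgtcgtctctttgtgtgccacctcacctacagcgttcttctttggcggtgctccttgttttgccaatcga

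All 7 members had pooled regions in their windows, and 3 of 7 had a thresholded peak (42.9%). These were *dlg-1*, *hmp-2* and *ajm-1*. Among all protein-coding genes 2.25% had a thresholded summit in the same kind of window, and among the 4751 genes whose window was at least as long as that of *hmp-2*, the shortest of the members, the share was 3.75%. Because the *ajm-1* peak entered the choice of members, nothing is read from this difference. The weakest member inside the threshold was *ajm-1*, with rank 188 and a signal value of 36.5. The strongest member region outside it was that of *hmr-1*, with rank 344 and 30.1, against 32.2 for the last peak of the thresholded list and also for the first region outside it.

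The member windows together covered 202.2 kb and held 94 pooled regions, or 0.465 per kb, against 0.205 per kb over the windows of all protein-coding genes. A pooled region by itself is common, since 74.8% of all protein-coding genes had one, and 87.6% of those with a window at least as long as that of *hmp-2*. A region among the 2000 strongest was present in 5 of 7 members (71.4%), against 14.0% of all genes and 22.7% of genes with a window at least as long as that of *hmp-2*. That floor, 8.79 kb, does not match the members for length. The windows of *ajm-1*, *hmr-1* and *vab-10* were 35.7, 63.9 and 62.6 kb. *let-413* and *hmp-1* were the members without one. The strongest region of each member, in order of pooled rank, was 25 for *dlg-1*, 60 for *hmp-2*, 188 for *ajm-1*, 344 for *hmr-1*, 624 for *vab-10*, 2099 for *hmp-1* and 2751 for *let-413*. Their median, 344, compares with 6420 over the 14955 genes with a region. Members held a median of 9 pooled regions per gene, against 1 over all protein-coding genes. A gene with more regions has more draws for a strong one, so these medians cannot be compared directly. With the list extended to the 570 strongest regions, 4 of 7 members had one, *hmr-1* being the addition, against 4.33% of all genes. In the strongest regions of a single replicate, in number equal to the thresholded list, 3 of 7 members were present each time. The background was 2.19% of all genes in replicate 1, where the members were *dlg-1*, *hmr-1* and *hmp-2*, and 2.22% in replicate 2, where they were *dlg-1*, *hmp-2* and *ajm-1*.

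**Figure D1:**
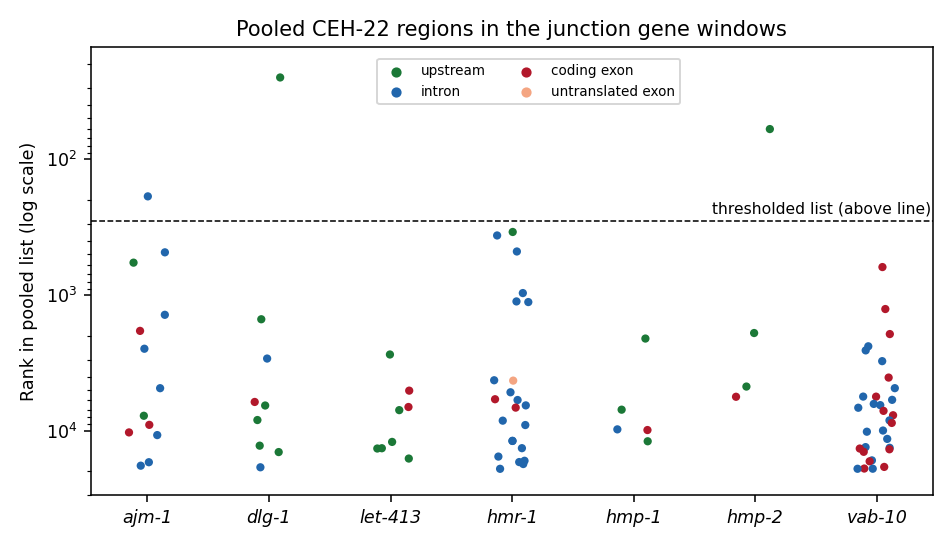
Each point is a pooled region in the window of a junction gene, by its rank in the pooled list (log axis, strongest at the top), coloured by position relative to the gene, with a dashed line at the end of the thresholded list. *dlg-1* and *hmp-2* each have a single region far above the rest, *hmr-1* has 6 regions between ranks 344 and 1130, and *vab-10* has 32 regions, none in the thresholded list.

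The DLG-1 and AJM-1 module carried both an upstream and an intronic thresholded peak. DLG-1 is the Discs large homologue, a scaffold that AJM-1, a coiled-coil junction protein, needs for its localisation. The *dlg-1* peak (chrX:5475192-5475535) had a pooled signal value of 66.6. It had 34.7 and rank 17 in replicate 1, and 32.1 and rank 70 in replicate 2, so it was near the top of both lists. Its summit lay 4336 bp upstream of the 5′ end of *dlg-1* (X, 5479700 to 5484941, plus strand), and the next nearest protein-coding 5′ end, of *dpyd-1*, was 7494 bp away. The summit fell inside an annotated non-coding RNA gene, C25F6.10. The peak was 3.4 times as strong as the second *dlg-1* region, which lay 561 bp upstream of the 5′ end with a pooled signal value of 19.6 and rank 1513. That region had ranks 1664 in replicate 1 and 15978 in replicate 2. An intronic region (rank 2947, 16.8), 502 bp into the gene, was found in replicate 2 only, its nearest replicate 1 summit lying over 200 bp away. Of the 9 *dlg-1* regions, 6 were upstream, and the 6 of lowest rank had signal values from 9.54 to 13.8.

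The *ajm-1* gene (X, 9082946 to 9113619, plus strand) is annotated with 16 transcripts from 14 different starts, and most of its strong regions lay inside the gene. Its thresholded peak (chrX:9102150-9102493) had a pooled signal value of 36.5, with 11.2 and rank 666 in replicate 1 and 23.7 and rank 183 in replicate 2. It ranked high in replicate 2 and lower in replicate 1. The summit lay 19376 bp downstream of the 5′ end in a 3266 bp intron (X, 9100370 to 9103635). Of the 16 transcripts, 13 span the summit and 3 start downstream of it, the nearest, C25A11.4i.1, 1440 bp away.

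The second *ajm-1* region lay 1272 bp from the peak in the same intron, with a pooled value of 26.7 and rank 486. It had 14.6 and rank 302 in replicate 1 and 12.5 and rank 3651 in replicate 2, the reverse order of the peak. These regions thus led the *ajm-1* window in different replicates. The same intron held a further, weaker region (rank 10801, 11.7). A pair of further intronic regions sat near transcript starts, at rank 1403, 199 bp upstream of that of C25A11.4k.1, and at rank 2495 (17.4), 22 bp upstream of that of C25A11.4a.3. The summit of rank 1403 also fell inside an annotated non-coding RNA gene, H08J11.3. The nearest tRNA gene was 458 bp from the summit of rank 1403, and another was 302 bp from that of rank 2495. Both ranked higher in replicate 1, the region of rank 1403 with 988 in replicate 1 and 6040 in replicate 2, and that of rank 2495 with 1422 in replicate 1 and 10375 in replicate 2.

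Other *ajm-1* regions lay at the ends of the window. An upstream region (rank 579, 25.4), with ranks 1272 in replicate 1 and 1029 in replicate 2, had its summit 4581 bp before the gene and 40 bp from a tRNA gene. Its summit was also 1179 bp from the 5′ end of F47E1.1. Highly transcribed short RNA genes can attract ChIP signal without specific binding, and the part of the tRNA gene in this region was not tested. The thresholded peak was 10694 bp from the nearest annotated tRNA, snoRNA, snRNA, rRNA or microRNA gene, and no part of such genes was tested there either. A coding exon near the 3′ end held a region of rank 1843 (18.7) that was found in replicate 2 only (16.0, rank 1165). In all, *ajm-1* had 13 pooled regions, of which 8 were intronic, 3 in coding exons and 2 upstream, and 7 had a summit of both replicates within 200 bp.

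LET-413, the Scribble-related protein that positions these junctions, had the weakest best region. The 8 pooled regions of *let-413* (V, 7973078 to 7977776, minus strand) ranked from 2751 to 16082, with signal values from 10.1 to 17.1. The strongest (chrV:7978054-7978397) lay 450 bp upstream of the 5′ end. It had a value of 13.7 and rank 2426 in replicate 2, and no replicate 1 summit within 200 bp. The best replicate 1 region anywhere in the window ranked 8343 with a value of 4.96. Of the 8 regions, 6 were upstream and 2 in coding exons.

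Within the cadherin and catenin module, the β-catenin gene *hmp-2* had a thresholded peak and its partners did not. HMP-2 binds the cytoplasmic tail of the cadherin HMR-1 and recruits the α-catenin HMP-1. The *hmp-2* peak (I, 14737311 to 14737654) had a pooled value of 53.0, with 19.6 and rank 133 in replicate 1 and 32.8 and rank 65 in replicate 2. It was in the upper part of both lists and was the only replicate 1 region in the *hmp-2* window. It lay 1399 bp upstream of the 5′ end of *hmp-2* (I, 14738882 to 14742671, plus strand). It was closer to another gene, K05C4.7, which lies on the same strand between the peak and *hmp-2*, ends 85 bp before it and starts 219 bp from the summit. Which of the 2 genes the peak belongs to cannot be told from position.

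The other 3 *hmp-2* regions were found in replicate 2 only. The strongest of them, rank 1911 with a pooled value of 18.6, lay 244 bp upstream of the 5′ end and inside K05C4.7, with 15.4 and rank 1369 in replicate 2. The next, rank 4740 (14.8), lay 45 bp upstream of the 5′ end, and the last, rank 5638 (14.1), in a coding exon. The peak was 2.85 times as strong as the second region.

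The α-catenin gene *hmp-1* (V, 11845871 to 11852166, plus strand) had 5 pooled regions, none among the 2000 strongest. The strongest (chrV:11844726-11845069) lay 973 bp upstream, with a pooled value of 18.2 and rank 2099. Its summit fell inside the non-coding RNA gene R13H4.11 and was 1170 bp from the 5′ end of *nphp-4*, which runs the other way. Replicate 1 had 8.93 and rank 1319 at the same position. Replicate 2 had 16.1 and rank 1100 at a summit 152 bp away, which was also the nearest replicate 2 summit to the adjoining pooled region of rank 7018. That replicate 2 summit lay 59 bp from the summit of rank 7018, so it may belong to the adjoining region instead. The ranks of the nearest replicate summits, 1319 and 1100, were similar to each other and better than the pooled rank.

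The cadherin gene *hmr-1* (I, 11075755 to 11134667, minus strand) had 6 regions among the 2000 strongest, more than any other member, and none in the thresholded list. Its longest transcript, W02B9.1b.1, starts at 11134667, and the shorter W02B9.1a transcripts start at 11094526, in the 3′ part of the gene. The long form is known as a neuronal cadherin isoform and the short one as the epithelial isoform. The strongest region (I, 11137456 to 11137799) lay 2961 bp upstream of the long transcript, with a pooled value of 30.1 and rank 344. It had 14.2 and rank 334 in replicate 1, and 13.4 and rank 2704 in replicate 2.

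The remaining 5 strong *hmr-1* regions were intronic and lay within 7.58 kb (summits from 11090905 to 11098488), on both sides of the start of the short transcripts, in a window of 63.9 kb. Of these, 3 lay downstream of that start, in a 5253 bp intron, and 2 upstream of it, in an 18116 bp intron of the long transcript. The pooled values were 29.4, 26.8, 22.1, 21.1 and 21.1, at ranks 365, 479, 970, 1118 and 1130. The replicates differed over them. The region of rank 365 had ranks 816 in replicate 1 and 793 in replicate 2, and that of rank 1130 had 1378 in replicate 1 and 2178 in replicate 2, so these were alike. The region of rank 479 had 20.5 and rank 120 in replicate 1, and 6.86 and rank 23518 in replicate 2, so it stood out in replicate 1 only. That of rank 970 had 20.6 and rank 334 in replicate 2 and no replicate 1 summit within 200 bp. That of rank 1118 had rank 11098 in replicate 1 and 1534 in replicate 2, but a replicate 1 region of rank 230 (16.4) lay 206 bp from its summit, just past the 200 bp used, so that contrast rests on the distance chosen.

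VAB-10, the spectraplakin of the epidermal attachment structures, had many regions of moderate strength. The gene *vab-10* (I, 11747424 to 11804991, minus strand) held 32 pooled regions, the most of any member, of which 18 were intronic, 14 in coding exons and none upstream. The 3 regions among the 2000 strongest were all in coding exons. The strongest (I, 11765189 to 11765532) had a pooled value of 24.9 and rank 624, with 8.21 and rank 1764 in replicate 1 and 16.0 and rank 1131 in replicate 2. The next (rank 1272, 20.5) had 19.3 and rank 462 in replicate 2 and no replicate 1 summit within 200 bp. The last of them (rank 1945, 18.5) had rank 1086 in replicate 1 and 9175 in replicate 2. The intronic regions began at rank 2394, with a value of 17.6, 961 bp downstream of a group of transcript starts at 11792066.

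**Figure D2:**
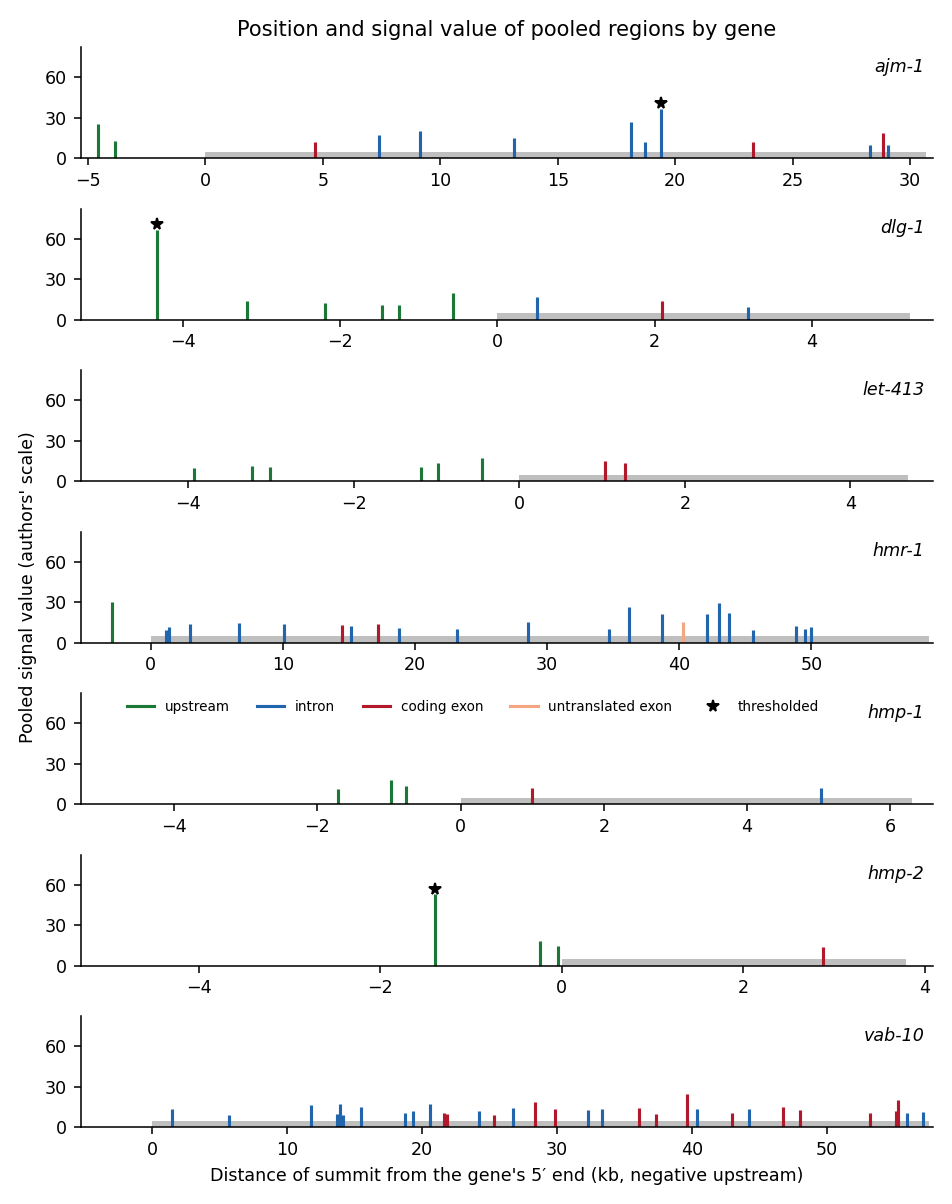
Signal value of every pooled region against the distance of its summit from the annotated 5′ end of its gene (kb, negative upstream), 1 panel per gene with its own distance scale, with the gene body as a grey bar, line colour giving the position and stars marking thresholded peaks. The *dlg-1* and *hmp-2* peaks are upstream at 66.6 and 53.0, the *ajm-1* peak is intronic at 36.5, and 5 of the stronger *hmr-1* regions stand together between 36 and 44 kb.

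Over all members, 48 of 94 regions were intronic (51.1%), 24 in coding exons (25.5%), 21 upstream (22.3%) and 1 in an untranslated exon. Over all pairs of a protein-coding gene and a region in its window, 18.8% were intronic, 17.8% in coding exons and 60.3% upstream. The members' windows were longer, with a median of 11.3 kb against 7.03 kb, and the part that is gene body grows with them, so these shares cannot be compared directly. Among the 18 member regions within the 2000 strongest, 8 were intronic, 6 upstream and 4 in coding exons. Summits within 500 bp of any transcript start of the gene made up 10.6% of member regions, against 17.3% over all genes. A tRNA, snoRNA, snRNA, rRNA or microRNA gene lay within 200 bp of 2 of 94 member regions (2.13%), against 2.21% of all pooled regions.

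With 200 bp allowed between summits, most member regions were not shared by both replicates, but with 500 bp 54 of 94 were. Of the 94, 33 had a summit of both replicates within 200 bp (35.1%), 58 of 1 replicate only (61.7%), and the others of neither. Over the whole pooled list the shares were 35.4% and 61.3%, so the members stood close to all regions in this respect. Within the 2000 strongest, 14 of 18 member regions had both replicates (77.8%), against 81.7% of all. A region with both replicates was present in all 7 members, against 40.2% of all protein-coding genes and 55.8% of those with long windows. Over the 33 shared member regions the ranks in replicates 1 and 2 had a Spearman correlation of 0.582, and over the 6963 shared regions of the whole list it was 0.198. Both values are descriptions over regions that share the same libraries and control, and adjoining pooled regions can share a replicate summit. In 7 of the 33 regions both ranks were 2000 or better, against 449 of the 6963. The 7 were in *ajm-1*, *dlg-1*, *hmp-1*, *hmp-2*, *hmr-1* and *vab-10*. The members were selected on the strength of peaks in these same lists, so nothing is read from either difference.

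**Figure D3:**
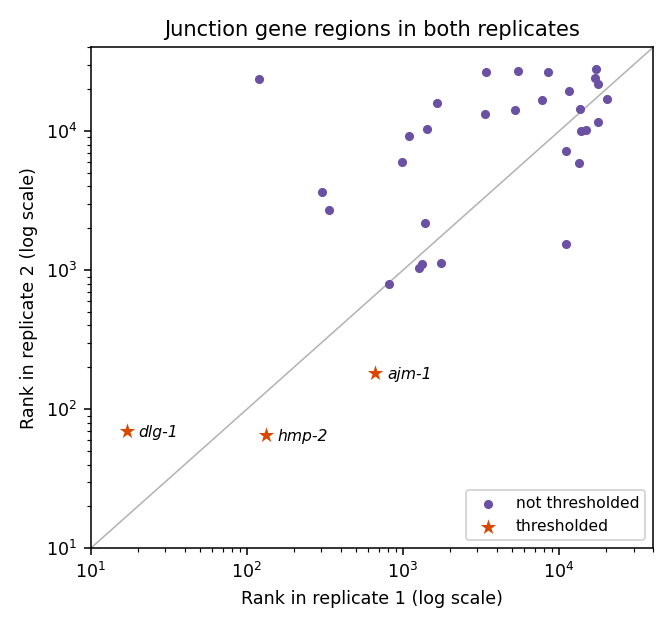
Rank in replicate 2 against rank in replicate 1 (log axes) for the 33 pooled member regions with a summit of both replicates within 200 bp, with stars for the thresholded peaks and a grey line of equal rank. The *dlg-1* peak lies at ranks 17 and 70, *hmp-2* at 133 and 65 and *ajm-1* at 666 and 183 (replicate 1, then replicate 2), all 3 below every other point, and 1 *hmr-1* region stands apart at rank 120 and 23518.

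The NK-2 site was searched as TCAAGTG or TTAAGTG on either strand, which share AAGTG and do not otherwise overlap. It occurred within 100 bp of 8 of 94 member summits (8.51%), against 6.06% of all pooled regions. Among the 3 thresholded member peaks, only *dlg-1* held it, 64 bp from the summit (X, 5475297 to 5475303, minus strand). The next strongest was the *hmr-1* region of rank 479, with TCAAGTG 20 bp from its summit. The other 6 sites were at weak regions, with ranks from 4874 to 19143, in *ajm-1*, *vab-10*, *let-413*, *dlg-1* and *hmr-1*. The sites on chromosomes X and V are shown with 10 bases on each side, on the strand of the site and with the site in capitals, to let their flanks be compared.
*dlg-1*, rank 25, chrX:5475287-5475313, minus strand: cagcacatcgTCAAGTGacgtgtttga
*ajm-1*, rank 4874, chrX:9096097-9096123, minus strand: acttgtcgaaTCAAGTGaaaaagatgg
*let-413*, rank 12128, chrV:7980970-7980996, minus strand: taataatgttTCAAGTGaaaagatgat
*dlg-1*, rank 12926, chrX:5478449-5478475, plus strand: tctttggaaaTCAAGTGgctattgaaa

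Most NK-2 sites in the member windows had no region. Of 55 sites in the windows, 8 lay within 100 bp of a pooled summit (14.5%), against 5.2% of the 23611 sites in the genome, and pooled regions were also denser in the member windows. By gene, this was 2 of 4 sites in *dlg-1*, 3 of 13 in *hmr-1*, 1 of 8 in *ajm-1*, 1 of 20 in *vab-10*, 1 of 2 in *let-413*, none of 7 in *hmp-1* and none of 1 in *hmp-2*. The reversed control, GTGAACT or GTGAATT, was in 9.57% of member regions, against 5.72% of all pooled regions, so it was no rarer among the members than the NK-2 site itself. The GATA site TGATAA was in 11.7%, against 15.3%, and the forkhead forms TGTTTAC or TGTTTGC in 12.8%, against 6.81%. The forkhead forms were in 12 member regions, among them that of *hmr-1* at rank 365 and the strongest of *hmp-1*. Matches describe letters in these windows and do not show binding of a factor.

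Other epithelial genes were set beside the members from a list of 37, of which 36 matched the annotation by name and *ifa-2* did not. Only *spc-1*, the α-spectrin gene, had a thresholded peak (2.78%, against 42.9% of the members and 2.25% of all protein-coding genes). The *spc-1* peak (chrX:3127664-3128007) lay 757 bp upstream of its 5′ end, with a pooled value of 66.2 and rank 26. It had 14.7 and rank 298 in replicate 1, and 50.4 and rank 19 in replicate 2. A region among the 2000 strongest was present in 16 of 36 (44.4%), against 71.4% of the members and 14.0% of all genes. Among genes with a window at least as long as that of *hmp-2* the share was 22.7%. The listed genes were not matched for length, and the members were chosen with their peaks known. Nothing is therefore read from these differences.

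Of 7 genes for partners of the junction proteins, 5 had a region among the 2000 strongest, the same share as the members (71.4%). They were led by *srgp-1*, a GTPase-activating protein that acts with the cadherin complex (rank 441, 27.5, found in replicate 2 only). The others were *vab-9*, a claudin-like protein gene (rank 752), *jac-1*, the p120-catenin gene (1008), *magu-2*, a MAGUK scaffold gene (1098), and *afd-1*, the afadin gene (1354). Ranks in replicates 1 and 2 were 6770 and 400 for *vab-9*, and 6973 and 1099 for *jac-1*. They were 1023 and 4599 for *magu-2*, and 3027 and 4368 for *afd-1*. The *vab-9* summit lay 3454 bp upstream of that gene but 212 bp from the 5′ end of another gene, D2085.7. Of 11 polarity genes 5 had such a region. These were *pkc-3*, atypical protein kinase C (rank 586, with rank 401 in replicate 1 and 15280 in replicate 2), *lgl-1* (906), *eat-20* (1127), *lin-7* (1175) and *crb-1* (1841). The *lin-7* region was found in replicate 2 only. Ranks in replicates 1 and 2 were 9552 and 2510 for *eat-20*, 1305 and 7303 for *crb-1*, and 2134 and 2731 for *lgl-1*. The polarity genes *par-3* and *par-6* had their strongest regions at ranks 2028 and 3000, and *erm-1* had none.

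Hemidesmosome genes, which work with VAB-10 in the epidermis, had such a region in 4 of 10 cases. These were *pat-12* (rank 408, 28.1), *let-805*, the myotactin gene (744), *git-1* (863) and *pix-1* (1615). Ranks in replicates 1 and 2 were 8365 and 206 for *git-1*, and 22476 and 1509 for *pix-1*. They were 2858 and 657 for *pat-12*, and 2156 and 1903 for *let-805*. Of 5 claudin-like *clc* genes, 4 had no pooled region and *clc-4* had 1 at rank 19156. Besides *spc-1*, the β-spectrin gene *unc-70* had a region at rank 397 (28.4, with ranks 555 in replicate 1 and 811 in replicate 2). The other spectrin gene listed, *sma-1*, had its strongest at rank 2884.

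**Figure D4:**
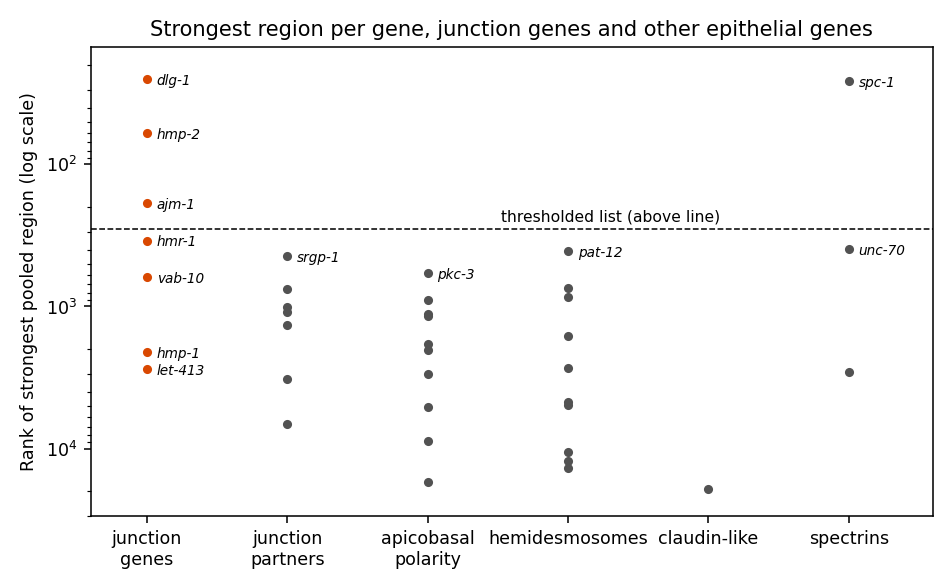
Rank of the strongest pooled region of each gene (log axis, strongest at the top), with the junction genes at the left in orange and 5 groups of other epithelial genes in grey, and a dashed line at the end of the thresholded list. The junction genes range from 25 to 2751, only *spc-1* among the others lies above the line, and the 5 genes without a pooled region (*erm-1* and 4 *clc* genes) are not drawn.

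The genes most like *ajm-1* were found among the 71 protein-coding genes whose thresholded summits all lay in introns of the gene itself, ordered by the pooled rank of their strongest peak. *ajm-1* stood at place 46 of these. The 3 genes just before it were *unc-33* (rank 183, 36.9), *mdt-4* (184, 36.9) and *mix-1* (187, 36.5). The 3 just after it were K05C4.2 (189, 36.4), *mpk-2* (204, 35.8) and *gar-3* (206, 35.8), a muscarinic receptor gene. The likeness is in peak position and pooled rank only, over 1 pooled list.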

How the data were processed

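CEH-22 ChIP-seq of 2 biological replicates in 1 group was analysed from peak lists on build ce11. Per the deposited file listing, a relaxed list came from each replicate's alignments with a control, a pooled list from both replicates together, and IDR on these gave the thresholded list. Peak caller, aligner and their versions: not given in the sources used here. Column 7, the signal value, is a score that the authors deposited, with no stated scale. The relaxed lists hold background as well as peaks, per the deposited file names. The deposited −log10 q values, between 1.35 and 1.82 in the thresholded list and between 0.0175 and 1.82 in the pooled list, were not used to filter regions. The control samples were not analysed here.

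Gene models came from Ensembl release 115 and sequence from RefSeq, both of assembly WBcel235, which is ce11. No region reached past a reference chromosome's end. A summit was column 2 plus column 10, written 1-based. Summits were shared when within 200 bp. Replicate values are those of the nearest summit within 200 bp, so adjoining pooled regions can share one. Scripts used Python 3.11.15, numpy 2.4.6 and pandas 2.3.3, and the counting functions were tested on simulated regions and planted motifs.

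The members and lists were chosen with earlier results of these data known, so no test was run, and counts are given beside those over all protein-coding genes or all pooled regions. Named were all members, their regions among the 2000 strongest, the strongest region of each, and other epithelial genes with a region among the 2000 strongest. Member regions shared by both replicates were also to be named and are given here as counts where weaker. *par-3*, *par-6*, *erm-1*, *clc-4* and *sma-1*, and regions of lower rank, were named with their values already seen. The alternatives covered other upstream reaches, list sizes, overlap criteria, single replicates, the ce10 list, and other site spellings and widths.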

Additional observations from a re-analysis of the deposited data

How the results depend on the processing

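The count of members with a thresholded peak, 3, fell to 1 with 1000 bp or 0 bp upstream in place of 5000 bp, since only the *ajm-1* peak lies in its gene. In lists of the same length from 1 replicate alone it was 3 in both, but *hmr-1* stood in the place of *ajm-1* in replicate 1. The 94 pooled regions became 59 in the strongest 50% of the list, and the lists of a single replicate gave 105 to 115. The 33 regions shared by both replicates became 54 at 500 bp, which is most of the 94, and 44 by any overlap. With the strongest 50% of each replicate list they became 21. The median standing of the members' strongest regions, 1.75% from the top of the pooled list, was 1.01 to 1.11% in a single replicate. The pooled list holds 19644 regions and each replicate list 30000, so these percents differ partly by list length. By rank the median was 344 in the pooled list, 302 in replicate 1 and 334 in replicate 2. With 1000 bp upstream the median standing was 7.7%, as *dlg-1* and *hmp-2* lose their peaks. The shorter AAGTG was at 43 of the 94 regions (45.7%, close to the 41.1% of all pooled regions), in place of 8 for the NK-2 site. Among the 36 other epithelial genes, 4 had a region among the 570 strongest, in place of 1 with a thresholded peak. In single-replicate lists of the same length as the thresholded list, 0 to 2 had one. That alternative was chosen after seeing the data. In all, 21 of 33 recomputed summary values stayed within the limit used, at most 1.5 times for counts and under 1 SD between replicates for the median standing. Leaving out a replicate gives no count of regions shared by both. Depth is unknown and limits every value.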

Other observations

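Strong regions of a single replicate with no pooled summit within 200 bp were few in the member windows, 3 from replicate 1 and 2 from replicate 2 at rank 2000 or better. Of the 105 replicate 1 regions there, 59 had no pooled summit within 200 bp (56.2%, against 66.4% of the whole replicate 1 list), and of the 115 replicate 2 regions 37 had none (32.2%, against 46.0%). The strongest of those in replicate 1 was an intronic *hmr-1* region with a value of 16.4 and rank 230 (I, 11095616 to 11095965), 206 bp from the pooled summit of rank 1118, so just past the distance used. The next, upstream of *hmp-1* and inside the gene *nphp-4*, had a value of 9.06 and rank 1255 and lay 2190 bp from any pooled summit. In replicate 2 the strongest were an intronic *vab-10* region (14.9, rank 1639), 225 bp from a pooled summit, and a region 280 bp from the *dlg-1* peak (14.5, rank 1822). These replicate 2 regions, and the *hmr-1* region of rank 230, overlapped a pooled region and missed on summit distance only.

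The sequence around several of the strongest member summits was richer in G and C than that around a typical region. The share of G and C within 100 bp of the summit was 54.7% at the *ajm-1* peak and 51.7% at the *dlg-1* peak, against a median of 39.3% over all pooled regions. It was 50.7% at the strongest *hmp-1* region and 48.8% at that of *let-413*, which were much weaker, and 41.3% at the *hmp-2* peak. The strongest *vab-10* and *hmr-1* regions had 52.2% and 48.3%. Over all member regions the median was 41.8%, close to that of all pooled regions. Regions of similar rank in other genes were not compared.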
